A study of Mus musculus with 16 samples.

Results

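Egr1, Egr2, Egr3, Nr4a1, Nr4a2, Nr4a3, Klf2, Klf4, Klf6 and Ier2 are 10 genes grouped here as early genes. The RNA of many early genes rises soon after a cell receives a signal or is stressed. Not every gene of the group behaves alike, and Klf2 is tied to quiescence. The 10 genes were picked by name, with earlier results of these data known. All 10 were found among the 50600 genes of the count table and were also among the 16345 genes that passed the filter on low counts and were tested. Their levels were followed over 16 bulk RNA sequencing libraries of sorted mouse cells, 4 libraries in each of 4 groups, from male mice aged 13 to 14 weeks.

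Both groups of microglia came from CX3CR1CreERT2:Rosa26-tdT mice, which carry a Cre recombinase under the control of the Cx3cr1 gene and a red reporter in Rosa26. Control microglia were the CX3CR1+ cells of control brain, and ischemic microglia were the CX3CR1+ cells of the ischemic hemisphere. Both groups of CD11c-eYFP+ cells came from Tg(Itgax-Venus)1Mnz mice, which make a yellow fluorescent protein under the promoter of Itgax, the gene for CD11c. Brain CD11c cells came from the ischemic hemisphere and spleen CD11c cells from the spleen. The mouse line differs wherever microglia are compared with CD11c cells, so line and cell population cannot be told apart. How long after ischemia the cells were taken, and whether the mice that gave spleens were ischemic, is not given in the sources used here.

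The EGR proteins are zinc-finger transcription factors that bind GC-rich sites, and their genes are turned on by the MAP kinase pathway through serum response factor, which binds the serum response element (SRE). NR4A proteins are nuclear receptors that act without a known physiological ligand, and their genes respond to cyclic AMP and calcium through CREB, which binds the cyclic AMP response element (CRE). Klf2, Klf4 and Klf6 encode zinc-finger factors of the Krüppel-like family: Klf2 is known from quiescent T cells and endothelium, Klf4 from monocyte differentiation and Klf6 from activated macrophages. Ier2 encodes a small nuclear protein of the immediate early response. In the brain, enzymatic dissociation is known to raise many early response genes in microglia, and the labels describe enzymatic dissociation for brain tissue.

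The DNA around the start of these genes was searched for short letter patterns, among them the SRE and the CRE named above. RefSeq windows on build GRCm38.p6, each 300 bases long from 250 bases before to 50 bases after a start, were at hand for 7 of the 10 genes, in 11 windows; Egr1, Egr3 and Ier2 are named only. The NR4A windows are shown because each held at least 4 copies of the CRE half-site TGACG, counted on both strands. Of all 32851 windows searched, 20.8% held at least 1 half-site and 76, which is 0.231%, held 4 or more. The full CRE, TGACGTCA, which contains the half-site on each strand, was in none of the windows of these genes and in 1.79% of all windows. In the following stretches, which end where the first GENCODE exon begins or at the RefSeq start, capitals mark CRE half-sites on either strand (TGACG or its complement CGTCA).
Nr4a1, chr15:101266596-101266845, + strand: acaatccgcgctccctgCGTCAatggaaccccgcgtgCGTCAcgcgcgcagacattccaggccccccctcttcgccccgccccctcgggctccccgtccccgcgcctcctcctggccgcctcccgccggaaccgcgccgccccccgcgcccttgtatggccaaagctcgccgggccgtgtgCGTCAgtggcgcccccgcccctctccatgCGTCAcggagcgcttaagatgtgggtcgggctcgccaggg
Nr4a2, chr2:57124004-57124253, - strand: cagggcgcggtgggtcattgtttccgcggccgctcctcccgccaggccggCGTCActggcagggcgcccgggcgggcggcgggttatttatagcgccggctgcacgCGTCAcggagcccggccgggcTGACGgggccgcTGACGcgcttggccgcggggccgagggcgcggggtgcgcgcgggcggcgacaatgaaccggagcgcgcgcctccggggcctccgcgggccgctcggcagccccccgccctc
Nr4a3, chr4:48045055-48045152, + strand: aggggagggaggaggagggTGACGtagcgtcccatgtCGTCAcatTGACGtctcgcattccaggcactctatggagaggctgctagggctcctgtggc

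The stretch of Nr4a1 holds 4 half-sites, that of Nr4a2 holds 4, and that of Nr4a3 holds 3, with the fourth of its window inside the first exon. An Egr2 promoter is shown next because it holds an SRE, an element found in 1.63% of all windows. The SRE stood in 4 of the 5 Egr2 windows, 3 of which overlap each other and hold 2 CRE half-sites each. Klf2 is shown for a MEF2 site, the element through which the kinase ERK5 reaches this gene, present in 0.557% of all windows. In the Egr2 sequence the capitals mark the SRE and the CRE half-sites, and in the Klf2 sequence they mark the MEF2 site.
Egr2, chr10:67537619-67537868, + strand: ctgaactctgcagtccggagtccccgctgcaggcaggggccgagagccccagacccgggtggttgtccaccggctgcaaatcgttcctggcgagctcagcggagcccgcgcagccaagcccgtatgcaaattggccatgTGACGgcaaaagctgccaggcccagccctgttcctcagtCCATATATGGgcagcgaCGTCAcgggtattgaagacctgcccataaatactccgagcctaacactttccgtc
Klf2, chr8:72318812-72319032, + strand: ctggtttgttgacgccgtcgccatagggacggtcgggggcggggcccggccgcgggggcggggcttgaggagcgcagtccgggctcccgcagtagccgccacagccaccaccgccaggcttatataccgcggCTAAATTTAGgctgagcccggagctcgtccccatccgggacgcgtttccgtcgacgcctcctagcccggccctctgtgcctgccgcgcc

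The site bound by EGR proteins themselves, GCGNGGGCG on either strand, was found once in the windows of Nr4a1, Nr4a2 and Klf2, in 2 copies in that of Klf4, and in 5.55% of all windows. The NR4A site AAAGGTCA was in none of the windows of these genes and in 1.51% of all windows. These matches describe letters in a window; no binding was measured in these libraries.

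Library depth ran from 31569304 to 48245164 counted reads, and levels are given as CPM, counts per 1000000 counted reads, on library sizes scaled by edgeR's trimmed mean of M values. Summed CPM of 10 microglial markers, among them P2ry12 and Tmem119, was 41093 to 47319 in control microglia, 31240 to 38861 in ischemic microglia, 12612 to 14106 in brain CD11c cells and 1167 to 1669 in spleen CD11c cells. A list of 10 dendritic cell markers, among them Flt3, Zbtb46 and the MHC class II gene H2-Ab1, was summed in the same way. Its CPM was 744 to 1651 in control microglia and 310 to 586 in ischemic microglia. It was 10600 to 27167 in brain CD11c cells and 9475 to 15210 in spleen CD11c cells. Brain CD11c cells therefore carried both marker lists. The 4 brain CD11c libraries also differed among themselves: replicates 1 to 4 held 10600, 15168, 21693 and 27167 CPM of dendritic cell markers and 5540, 4690, 2363 and 1547 CPM of 10 monocyte and macrophage markers. Spleen CD11c cells held 2371 to 3072 CPM of 8 B cell markers, and the other groups at most 22.0 CPM. In bulk libraries, fewer cells of one kind and less RNA per cell cannot be told apart.

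All 10 genes were lowest in spleen CD11c cells by group mean, and in 8 of them every spleen library lay under every one of the 12 brain libraries. That order was found in 16.9% of all genes tested. The group with the highest mean differed from gene to gene: control microglia for Egr1, Egr2, Klf2 and Ier2, ischemic microglia for Egr3, Nr4a1 and Klf6, and brain CD11c cells for Nr4a2, Nr4a3 and Klf4. The summed level of the 10 genes was 4242 to 6153 CPM in control microglia, 3113 to 4796 CPM in ischemic microglia, 2244 to 4121 CPM in brain CD11c cells and 332 to 405 CPM in spleen CD11c cells. In microglia Egr1 and Nr4a1 weigh most in this sum, which had means of 4985 CPM in control and 3895 CPM in ischemic cells. Egr1 had means of 2497 and 1157 CPM there, and Nr4a1 of 993 and 1382 CPM.

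**Figure D1:**
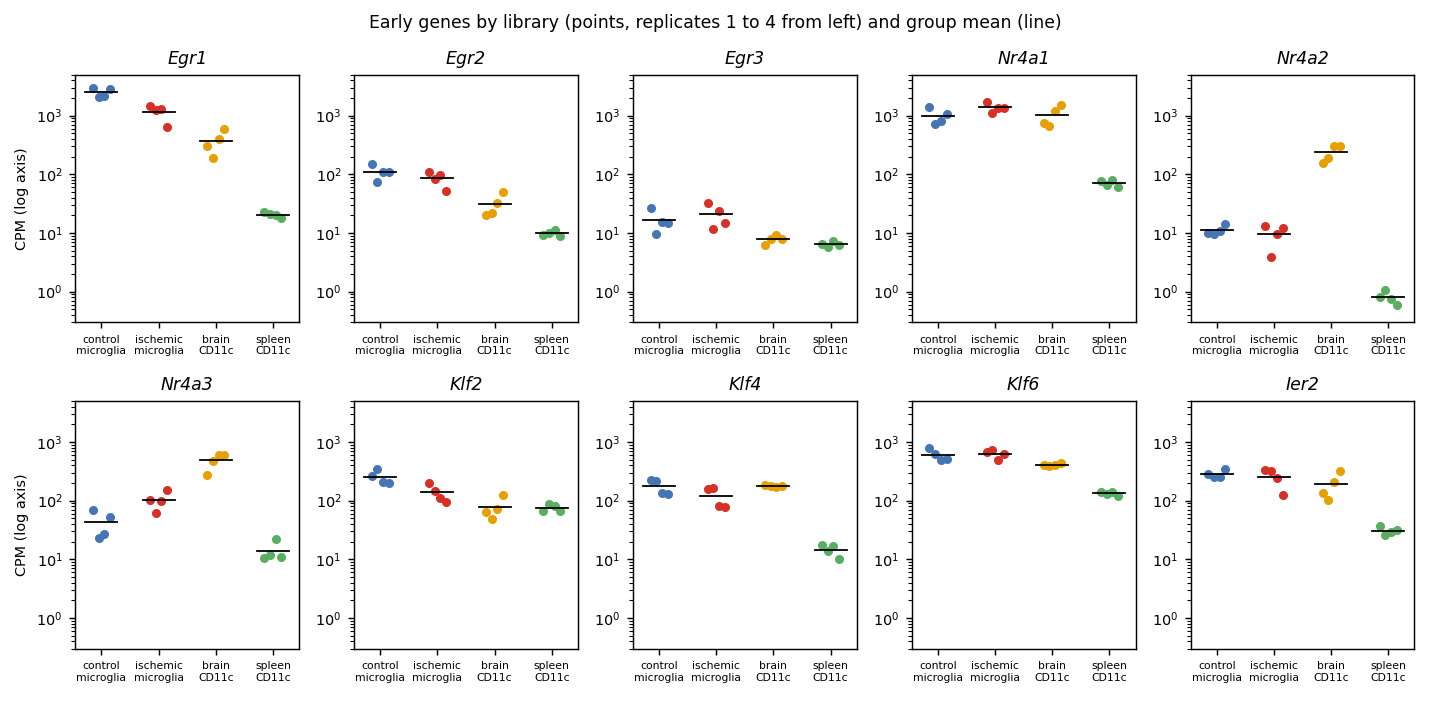
Level of each of the 10 genes in CPM on a log axis, 1 point per library in the 4 groups, with the group mean as a line. Egr1 steps down from control microglia to spleen CD11c cells without overlap, Nr4a2 and Nr4a3 are highest in brain CD11c cells, and the spleen libraries are lowest for 8 of the 10 genes.

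Egr1, the best known member of its family (chromosome 18, 34859823 to 34864984 on GRCm38), was among the most abundant RNAs of control microglia. Its level was 2962, 2039, 2189 and 2798 CPM in control microglia and 1442, 1257, 1285 and 643 CPM in ischemic microglia. It was 301, 185, 394 and 581 CPM in brain CD11c cells and 22.6, 21.1, 20.5 and 17.6 CPM in spleen CD11c cells. No neighbouring pair of groups overlapped, and the order was control microglia, ischemic microglia, brain CD11c cells, spleen CD11c cells. Counted per length of exon and scaled to the same total in each library, a level that can be compared between genes, Egr1 ranked 61 among all genes in control microglia, 153 in ischemic microglia, 546 in brain CD11c cells and 7394 in spleen CD11c cells. These values rest on 6615 to 118517 Egr1 counts per brain library and 761 to 996 per spleen library.

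Each gene was compared in 3 ways, fitted on the whole table with edgeR's quasi-likelihood test, with Benjamini-Hochberg adjustment over the 16345 genes and a threshold of 0.05: ischemic against control microglia, brain CD11c cells against ischemic microglia, and brain against spleen CD11c cells. The first pair of comparisons shares the ischemic microglia libraries, and the last pair shares the brain CD11c libraries. Log2 fold changes are given with their standard error. Egr1 was lower in ischemic than in control microglia (log2 fold change -1.11 ± 0.29, adjusted p = 0.00703, 4 libraries against 4). It was lower again in brain CD11c cells than in ischemic microglia (-1.66 ± 0.29, adjusted p = 0.000284). It was higher in brain than in spleen CD11c cells (4.16 ± 0.33, adjusted p = 1.70e-08).

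Heat shock genes, which are raised by handling and heat, were also counted. Of 12 heat shock genes, 7 were lower in ischemic than in control microglia and none was higher. Of all genes tested, 18.0% were lower and 17.7% higher. Hspa1a, an inducible HSP70, ran from 198 to 622 CPM in control microglia, 31.9 to 65.8 CPM in ischemic microglia, 19.3 to 139 CPM in brain CD11c cells and 0.0850 to 0.486 CPM in spleen CD11c cells. Jun, another early gene, ran from 493 to 1282 CPM in ischemic microglia, all under the control libraries, and fell by 1.75 on the log2 scale (SE 0.31, adjusted p = 0.000429). The part of handling or dissociation in the level of Egr1 was not tested.

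Egr2, a relative of Egr1 known from lymphocyte and macrophage gene control (chromosome 10, 67535475 to 67542188), was 148, 73.3, 107 and 108 CPM in control microglia and 110, 81.8, 98.7 and 52.1 CPM in ischemic microglia. These groups overlapped, and the difference did not pass the test (log2 fold change -0.35 ± 0.28, adjusted p = 0.354). In brain CD11c cells Egr2 was 20.3, 21.7, 32.5 and 50.6 CPM, all under the ischemic microglia, and it was lower there (-1.45 ± 0.29, adjusted p = 0.000839). The spleen libraries held 9.08, 9.96, 11.3 and 8.99 CPM, under every brain CD11c library, and Egr2 was higher in brain than in spleen (1.67 ± 0.29, adjusted p = 0.00013).

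Egr3, which acts with Egr2 in T cells (chromosome 14, 70077203 to 70082614), had a lower level per length than Egr1 and Egr2 in every group. It was 27.0, 9.43, 15.6 and 14.7 CPM in control microglia and 32.7, 11.8, 23.8 and 15.0 CPM in ischemic microglia, with overlap (0.32 ± 0.30, adjusted p = 0.437). Brain CD11c cells held 6.20, 7.93, 9.38 and 7.72 CPM, under every ischemic library (-1.41 ± 0.31, adjusted p = 0.00179). In spleen CD11c cells Egr3 was 6.40, 5.78, 7.24 and 6.11 CPM, overlapping the brain CD11c cells, so that Egr3 was 1 of the 2 genes not called between brain and spleen (0.29 ± 0.31, adjusted p = 0.423).

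Egr1, Egr2 and Egr3 were thus lower in brain CD11c cells than in ischemic microglia without overlap. Egr4, the remaining gene of the family and not among the 10, was at most 0.478 CPM in every library and was not called in this comparison (log2 fold change -1.19, adjusted p = 0.277). Over all genes tested in that comparison, 19.1% were called lower and 16.5% lay lower without overlap.

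Nr4a1, which encodes Nur77 and is known for its role in Ly6C-low monocytes (chromosome 15, 101254269 to 101274795), was high in every brain group. It was 1379, 726, 811 and 1055 CPM in control microglia, 1735, 1096, 1363 and 1334 CPM in ischemic microglia, and 761, 652, 1174 and 1511 CPM in brain CD11c cells. The 3 brain groups overlapped. By level per length Nr4a1 ranked 110 among all genes in control microglia, 101 in ischemic microglia and 117 in brain CD11c cells, against 2149 in spleen CD11c cells.

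Neither brain comparison passed the test for Nr4a1: the log2 fold change was 0.48 ± 0.25 for ischemic against control microglia (adjusted p = 0.147) and -0.43 ± 0.25 for brain CD11c cells against ischemic microglia (adjusted p = 0.183). Without brain CD11c replicate 4 the latter was -0.68 and passed (adjusted p = 0.0313), and with replicates 1 and 2 alone it was -0.97. Spleen CD11c cells held 77.2, 66.1, 78.3 and 59.4 CPM, a mean 14.6-fold under that of brain CD11c cells (log2 fold change 3.87 ± 0.28, adjusted p = 4.81e-09).

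Nr4a2, which encodes Nurr1 and is known from dopaminergic neurons and from macrophages (chromosome 2, 57106830 to 57124003), had another pattern than Nr4a1. Brain CD11c cells held 156, 188, 299 and 302 CPM, whereas control microglia held 9.77, 9.63, 10.7 and 14.0 CPM and ischemic microglia held 13.0, 3.93, 9.41 and 11.9 CPM. The microglia groups overlapped each other (-0.20 ± 0.30, adjusted p = 0.637) and lay under every brain CD11c library. The mean in brain CD11c cells was 24.7-fold that of ischemic microglia (log2 fold change 4.62 ± 0.34, adjusted p = 4.71e-08).

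Spleen CD11c cells held 0.821, 1.08, 0.742 and 0.579 CPM of Nr4a2, which rest on 25 to 51 counts per library. The log2 fold change of brain over spleen CD11c cells was 8.18 ± 0.41 (adjusted p = 1.67e-10), the largest of the 10 genes. Of 10 neuronal markers, 7 were lower and none was higher in brain CD11c cells than in ischemic microglia. These markers summed to 4.57 to 11.4 CPM in brain CD11c cells, with Gad2 at 0, against 26.3 to 69.6 CPM in microglia. In the same comparison 5 of 8 oligodendrocyte markers and 5 of 10 endothelial markers were higher and none lower. Of all genes tested, 19.1% were lower and 19.7% higher. The part of RNA from other cell types in the level of Nr4a2 was not tested.

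Nr4a3, which encodes Nor1 and is known from the migration of dendritic cells (chromosome 4, 48045153 to 48086447), was also highest in brain CD11c cells. It was 270, 476, 597 and 605 CPM there, 69.3, 23.3, 27.0 and 53.1 CPM in control microglia and 101, 61.3, 98.5 and 150 CPM in ischemic microglia. Every brain CD11c library lay above every microglia library, with a mean 4.74-fold that of ischemic microglia (log2 fold change 2.24 ± 0.39, adjusted p = 0.000282). Nr4a3 was the 1 gene of the 10 that rose in ischemic against control microglia (1.25 ± 0.38, adjusted p = 0.0175), although the lowest ischemic library, at 61.3 CPM, lay under the highest control library. That call was lost without control replicate 2 (1.03), control replicate 3 (1.07) or ischemic replicate 4 (0.99), with adjusted p of 0.0616, 0.0619 and 0.0722.

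Spleen CD11c cells held 10.6, 11.8, 22.5 and 11.0 CPM of Nr4a3, a mean 34.9-fold under that of brain CD11c cells (log2 fold change 5.13 ± 0.44, adjusted p = 8.01e-08). The 3 NR4A genes therefore shared a higher level in brain than in spleen CD11c cells, and Nr4a2 and Nr4a3 had in addition a higher level in brain CD11c cells than in microglia. In brain CD11c replicates 3 and 4, Egr1, Egr2, Nr4a1, Nr4a2, Nr4a3, Klf2 and Ier2 were all higher than in replicates 1 and 2. These replicates were also the pair with more dendritic cell marker RNA and less monocyte marker RNA, and they held 430 and 488 CPM of 8 oligodendrocyte markers against 238 and 216 CPM. Their titles in the labels are codes of another form than those of replicates 1 and 2, and what the codes stand for is not given in the sources used here. The part of cell composition, or of what the titles mark, in these levels was not tested. Against ischemic microglia, the value of Nr4a2 was 4.16 with replicates 1 and 2 alone and 4.98 with replicates 3 and 4 alone, that of Nr4a3 was 1.86 and 2.56, and that of Egr1 was -2.25 and -1.23. All of these were called, as were Egr2, Egr3 and Klf6 with either pair.

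**Figure D2:**
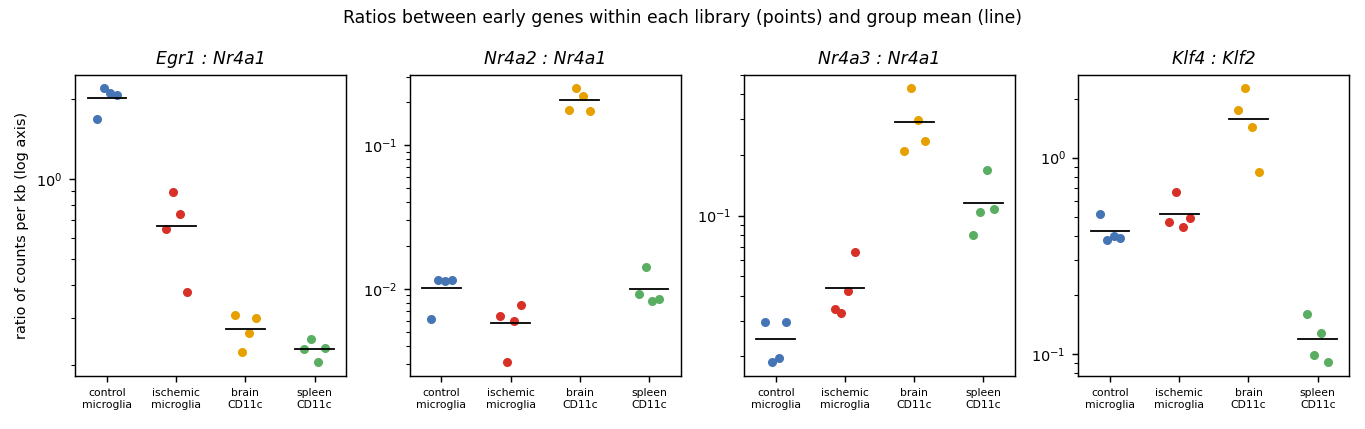
Ratio of levels per kilobase of exon between pairs of the genes in each library, on a log axis, by group. The Nr4a2 to Nr4a1 ratio of brain CD11c cells lies between 0.173 and 0.249, above every library of the other groups, and the Egr1 to Nr4a1 ratio steps down from control microglia.

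Ratios within a library do not depend on how libraries are scaled. The pairs were chosen after the values were seen, so no test is given, and they differed in how far they set the groups apart. Per kilobase of exon, the ratio of Egr1 to Nr4a1 was 1.68 to 2.20 in control microglia, 0.377 to 0.898 in ischemic microglia, 0.223 to 0.309 in brain CD11c cells and 0.205 to 0.250 in spleen CD11c cells. The first 3 groups did not overlap, while brain and spleen CD11c cells did, although both genes were many-fold lower in spleen. The ratio of Nr4a2 to Nr4a1 was 0.173 to 0.249 in brain CD11c cells, and at most 0.0142 in the other groups, which did not all separate from each other. The ratio of Nr4a3 to Nr4a1 was 0.0188 to 0.0295 in control microglia, 0.0328 to 0.0661 in ischemic microglia, 0.208 to 0.428 in brain CD11c cells and 0.0801 to 0.168 in spleen CD11c cells. None of these 4 ranges touched another. Egr1 to Ier2 was 2.76 to 3.49 in control microglia, 1.33 to 1.79 in ischemic microglia, 0.610 to 0.760 in brain CD11c cells and 0.193 to 0.274 in spleen CD11c cells, again without overlap. Other pairs did overlap: Klf6 to Klf2 was 0.762 to 1.23 in control microglia and 0.637 to 0.897 in spleen CD11c cells, and 1.42 to 2.70 in ischemic microglia and 1.49 to 3.33 in brain CD11c cells. The ratio of Egr1 to Fos was 0.433 to 0.952 in control microglia, a range that held all ischemic microglia (0.549 to 0.663), and the ratios of Nr4a1 and Ier2 to Fos overlapped between ischemic microglia and brain CD11c cells.

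Klf2, the factor tied to quiescence (chromosome 8, 72319033 to 72321656), was 266, 342, 204 and 203 CPM in control microglia and 200, 147, 110 and 95.4 CPM in ischemic microglia. All ischemic libraries lay under the control libraries, the nearest pair being 200 and 203 CPM, and Klf2 was lower in ischemic microglia (-0.88 ± 0.28, adjusted p = 0.0209). The call was lost without control replicate 2 (-0.72), ischemic replicate 3 (-0.80) or ischemic replicate 4 (-0.75), with adjusted p of 0.0736, 0.0587 and 0.0671. Brain CD11c cells held 63.8, 48.3, 72.5 and 125 CPM and overlapped the ischemic microglia through replicate 4.

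The level of Klf2 in brain CD11c cells was lower than in ischemic microglia (-0.84 ± 0.28, adjusted p = 0.0249). That call was lost on leaving out ischemic replicate 1 (-0.58) or 2 (-0.79), or brain CD11c replicate 1 (-0.74), 2 (-0.65) or 3 (-0.81), and it was also lost with brain CD11c replicates 3 and 4 alone (-0.47). In spleen CD11c cells Klf2 was 66.3, 85.8, 80.3 and 67.0 CPM, within the range of the brain CD11c cells (0.05 ± 0.27, adjusted p = 0.890). Klf2 was the second of the 2 genes with no call between brain and spleen, and the value was -0.41 with brain CD11c replicates 1 and 2 alone and 0.36 with replicates 3 and 4 alone.

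Klf4, which is needed for inflammatory monocytes (chromosome 4, 55527143 to 55532466), was 227, 215, 134 and 130 CPM in control microglia, 155, 161, 80.6 and 77.3 CPM in ischemic microglia, and 184, 180, 172 and 175 CPM in brain CD11c cells. In both microglia groups replicates 1 and 2 were higher than replicates 3 and 4, and the brain CD11c libraries were nearly equal, with a coefficient of variation of 3.13%. Every brain CD11c library lay above every ischemic one, but neither this difference (0.59 ± 0.25, adjusted p = 0.0778) nor that between ischemic and control microglia (-0.58 ± 0.25, adjusted p = 0.0872) passed the test. Both passed without ischemic replicate 1 (0.76 and -0.75) and without ischemic replicate 2 (0.79 and -0.77). In the spleen libraries Klf4 was 17.4, 13.9, 16.8 and 10.1 CPM, and Klf4 was higher in brain than in spleen (3.61 ± 0.28, adjusted p = 1.81e-08).

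The ratio of Klf4 to Klf2 per kilobase, both members of one family, was 0.380 to 0.516 in control microglia, 0.443 to 0.665 in ischemic microglia, 0.847 to 2.26 in brain CD11c cells and 0.0909 to 0.159 in spleen CD11c cells. Brain CD11c cells and spleen CD11c cells thus stood at opposite ends, with both microglia groups between them.

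Klf6, known also as a tumour suppressor (chromosome 13, 5861482 to 5870394), was 778, 620, 493 and 520 CPM in control microglia and 673, 729, 492 and 611 CPM in ischemic microglia. The groups overlapped (0.05 ± 0.14, adjusted p = 0.802). Brain CD11c cells held 406, 382, 406 and 442 CPM, under every ischemic library (-0.61 ± 0.14, adjusted p = 0.00273), with a coefficient of variation of 6.08%. Klf6 was 141, 130, 139 and 120 CPM in spleen CD11c cells, and it was higher in brain than in spleen (1.63 ± 0.15, adjusted p = 7.00e-08).

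Ier2, a short early gene (chromosome 8, 84661331 to 84662852), ranked 175 by level per length in control microglia. It was 288, 251, 250 and 340 CPM there, 334, 320, 243 and 123 CPM in ischemic microglia and 134, 103, 209 and 321 CPM in brain CD11c cells, with overlap among the 3 groups. The log2 fold changes were -0.14 ± 0.32 for ischemic against control microglia (adjusted p = 0.765) and -0.41 ± 0.32 for brain CD11c cells against ischemic microglia (adjusted p = 0.336). Without brain CD11c replicate 4 the latter was -0.78 and passed (adjusted p = 0.0480), it was -1.11 with replicates 1 and 2 alone, and it turned to 0.069 with replicates 3 and 4 alone. Ier2 levels of the spleen libraries were 36.3, 26.2, 28.5 and 31.0 CPM, and the gene was higher in brain than in spleen (2.65 ± 0.34, adjusted p = 5.93e-06).

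Read together by comparison, ischemic microglia differed from control microglia in 3 of the 10 genes: Nr4a3 was higher, and Egr1 and Klf2 were lower. Over all genes tested 35.7% were called, 17.7% higher and 18.0% lower, so that 3 of 10 is near the background. Egr1 and Klf2 lay lower without overlap, as did 23.3% of all genes, and none of the 10 lay higher without overlap, where 19.9% of all genes did. Summed monocyte and macrophage markers were 30.3 to 58.4 CPM in control and 1197 to 2582 CPM in ischemic microglia, with Ly6c2 under 1 CPM in both. Of these 10 markers, 5 were higher, 1 was lower and 4 were not called, with a median log2 fold change of 1.09. Of 10 dendritic cell markers, 2 were higher and 5 lower in ischemic microglia, with a median of -1.22. Of 10 microglial markers, none was higher and 5 were lower, with a median of -0.66. The part of these 3 marker lists in the differences of the early genes was not tested. The median log2 fold change of the 10 early genes was -0.17, against -0.05 over all genes. Without control replicate 2, or without ischemic replicate 4, 1 of the 10 was called.

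Brain CD11c cells differed from ischemic microglia in 7 of the 10 genes, with Nr4a2 and Nr4a3 higher and Egr1, Egr2, Egr3, Klf2 and Klf6 lower. Over all genes tested 38.8% were called, 19.7% higher and 19.1% lower. Nr4a2, Nr4a3 and Klf4 lay higher without overlap, as did 14.9% of all genes, and 4 of the 10 lay lower without overlap, as did 16.5% of all genes. The median of the 10 was -0.52 against 0.00 over all genes. Brain CD11c cells differed from spleen CD11c cells in 8 of the 10 genes, all higher in brain, where 64.2% of all genes tested were called, 31.2% higher and 33.0% lower. The same 8 genes lay higher without overlap, as did 25.3% of all genes, and none lay lower, where 29.9% of all genes did. The median of the 10 was 3.13 against -0.04 over all genes. The labels describe how brain tissue was dissociated, and that of spleen is not given in the sources used here, so tissue and preparation cannot be told apart.

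**Figure D3:**
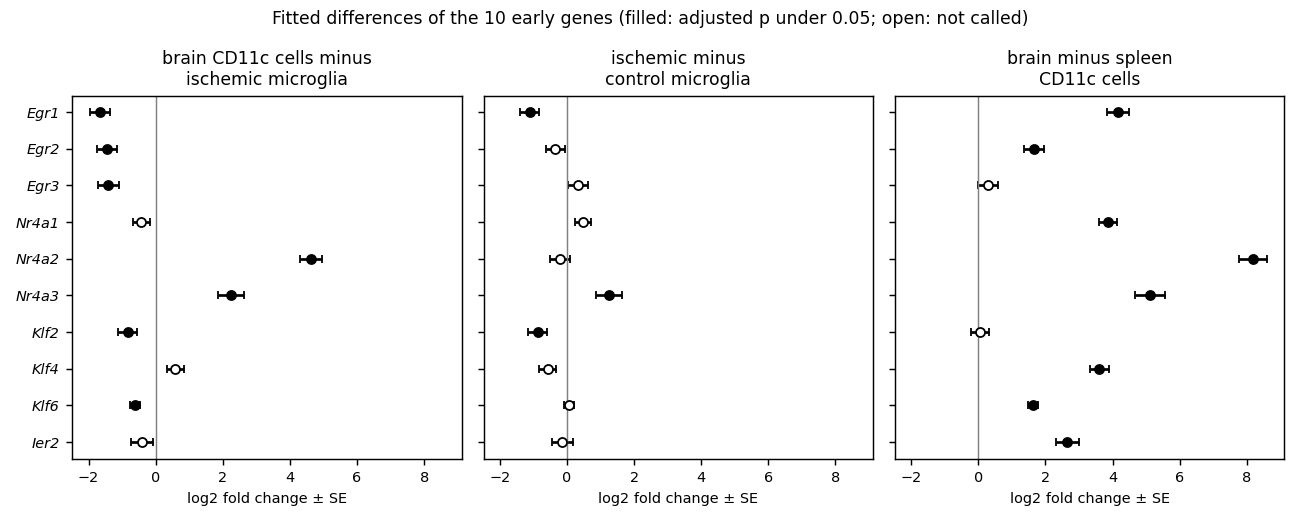
Log2 fold change of each of the 10 genes in 3 comparisons, with bars of 1 standard error from edgeR, filled where the adjusted p is under 0.05. The brain against spleen values reach 8.18 for Nr4a2, while those between microglia groups stay between -1.11 and 1.25.

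Whether the log2 fold change of brain over spleen CD11c cells differed from that of ischemic over control microglia was tested as a signed difference. These comparisons share no library. The difference was called in the positive direction in 8 of the 10 genes. Of all genes tested 43.5% were called, 23.7% in this direction and 19.8% in the other. It is not a difference in size where the signs are opposite. The changes were 4.16 and -1.11 for Egr1, 3.61 and -0.58 for Klf4, and 0.05 and -0.88 for Klf2. The difference was 8.39 ± 0.49 for Nr4a2 (adjusted p = 2.45e-09), 5.27 ± 0.43 for Egr1 (adjusted p = 6.96e-08) and 4.19 ± 0.37 for Klf4 (adjusted p = 2.23e-07). It was not called for Egr3 (-0.03, adjusted p = 0.981) or Klf2 (0.93 ± 0.39, adjusted p = 0.0651). Klf2 passed without ischemic replicate 1 (1.15) or without brain CD11c replicate 2 (1.08).

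The wider early response moved the same way between brain and spleen. Of 37 other early genes tested, such as the Fos and Jun families, 35 were higher in brain than in spleen CD11c cells and none was lower, with a median of 3.33. Fosb ran from 548 to 688 CPM in brain and from 2.52 to 5.21 CPM in spleen (log2 fold change 7.47 ± 0.28, adjusted p = 1.60e-12). Between microglia groups, 11 of the 37 were higher in ischemic cells and 8 lower, a median of 0.27. Bhlhe40, a circadian and activation factor, rose there from 8.57 to 10.7 CPM to 34.4 to 43.4 CPM (2.10 ± 0.14, adjusted p = 4.93e-08). Between brain CD11c cells and ischemic microglia, 5 were higher and 13 lower, and Bhlhe40 was higher again (3.69 ± 0.15, adjusted p = 3.87e-11). Shares of all genes called higher and lower were 31.2% and 33.0% between brain and spleen CD11c cells. They were 17.7% and 18.0% between microglia groups, and 19.7% and 19.1% between brain CD11c cells and ischemic microglia.

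Summed over the 37 genes, the level was 27403 to 32673 CPM in control microglia, 18072 to 24504 CPM in ischemic microglia, 12264 to 19571 CPM in brain CD11c cells and 2272 to 2435 CPM in spleen CD11c cells. Of all genes tested, 31.2% were higher in brain than in spleen CD11c cells and 33.0% lower. Of 12 heat shock genes, 9 were higher in brain and none lower. Their part in the difference between brain and spleen was not tested.

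Relatives and regulators of the 10 genes were counted next. Of 17 relatives tested, 13 were higher in brain than in spleen CD11c cells and 3 lower, against 31.2% and 33.0% of all genes. Between microglia groups 4 were higher in ischemic cells and 3 lower, near the 17.7% and 18.0% of all genes. Nab1 and Nab2 encode corepressors that bind EGR proteins, and both rose in ischemic microglia while Egr1 was lower there. Nab2 went from 53.4 to 82.2 CPM in control microglia to 138 to 219 CPM in ischemic microglia (1.36 ± 0.16, adjusted p = 1.56e-05). Nab1 was at most 44.7 CPM in control and at least 68.1 CPM in ischemic microglia (1.21 ± 0.14, adjusted p = 8.35e-06). Klf10, a TGF-beta induced family member, rose as well (0.87 ± 0.24, adjusted p = 0.00936). Between brain CD11c cells and ischemic microglia 5 relatives were higher and 4 lower, among them Klf9, a glucocorticoid-induced family member (2.08 ± 0.44, adjusted p = 0.00134). The shares over all genes were 19.7% and 19.1% there.

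Of 24 upstream factors and kinases tested, 1 was higher and 8 were lower in ischemic than in control microglia, 6 were higher and 6 lower in brain CD11c cells than in ischemic microglia, and 11 were higher and 2 lower in brain than in spleen CD11c cells. In the same order, the shares over all genes were 17.7% and 18.0%, 19.7% and 19.1%, and 31.2% and 33.0%. Crem, which encodes cyclic AMP responsive modulators of the CRE, was highest in brain CD11c cells and lowest in spleen CD11c cells. By group mean, Nr4a2, Nr4a3 and Klf4 had the same highest and lowest groups, whereas Nr4a1 was highest in ischemic microglia. For Klf4 the means of brain CD11c cells and control microglia were nearly equal, at 178 and 177 CPM, and their libraries overlapped. Crem ran from 21.8 to 27.9 CPM in control microglia, 15.4 to 43.1 CPM in ischemic microglia, 128 to 205 CPM in brain CD11c cells and 7.14 to 11.4 CPM in spleen CD11c cells. Crem was higher in brain CD11c cells than in ischemic microglia (2.60 ± 0.25, adjusted p = 5.20e-07) and than in spleen CD11c cells (4.29 ± 0.27, adjusted p = 1.18e-09). Srf, which encodes serum response factor, was the 1 gene of this list that was higher in ischemic microglia, at 116 to 131 CPM against 69.0 to 109 CPM (0.53 ± 0.15, adjusted p = 0.0106). Foxo1, a factor known to drive Klf2 in lymphocytes, was lower in brain than in spleen CD11c cells (-2.15 ± 0.11, adjusted p = 7.24e-11), where Klf2 itself was not called.

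Of 8 trafficking genes linked to KLF2 in lymphocytes, some were called in each direction in every comparison. Between brain CD11c cells and ischemic microglia 4 were higher and 2 lower, with Itgb7 at 204 to 404 CPM against 1.25 to 3.38 CPM, while Klf2 was lower. Between brain and spleen CD11c cells 3 were higher and 4 lower, with S1pr4, a sphingosine phosphate receptor of leukocytes, at 1.99 to 5.47 CPM against 33.3 to 50.2 CPM (-3.48 ± 0.29, adjusted p = 3.05e-08). Between microglia groups 1 was higher, 1 lower and 6 not called, where 17.7% and 18.0% of all genes were higher and lower. Those shares were 19.7% and 19.1% for brain CD11c cells against ischemic microglia, and 31.2% and 33.0% for brain against spleen CD11c cells. S1pr1, a relative of S1pr4 often read as a KLF2 target, is named here outside the rule for named genes. It was 53.4 to 106 CPM in ischemic and 75.3 to 87.2 CPM in control microglia (-0.01 ± 0.18, adjusted p = 0.972).

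**Figure D4:**
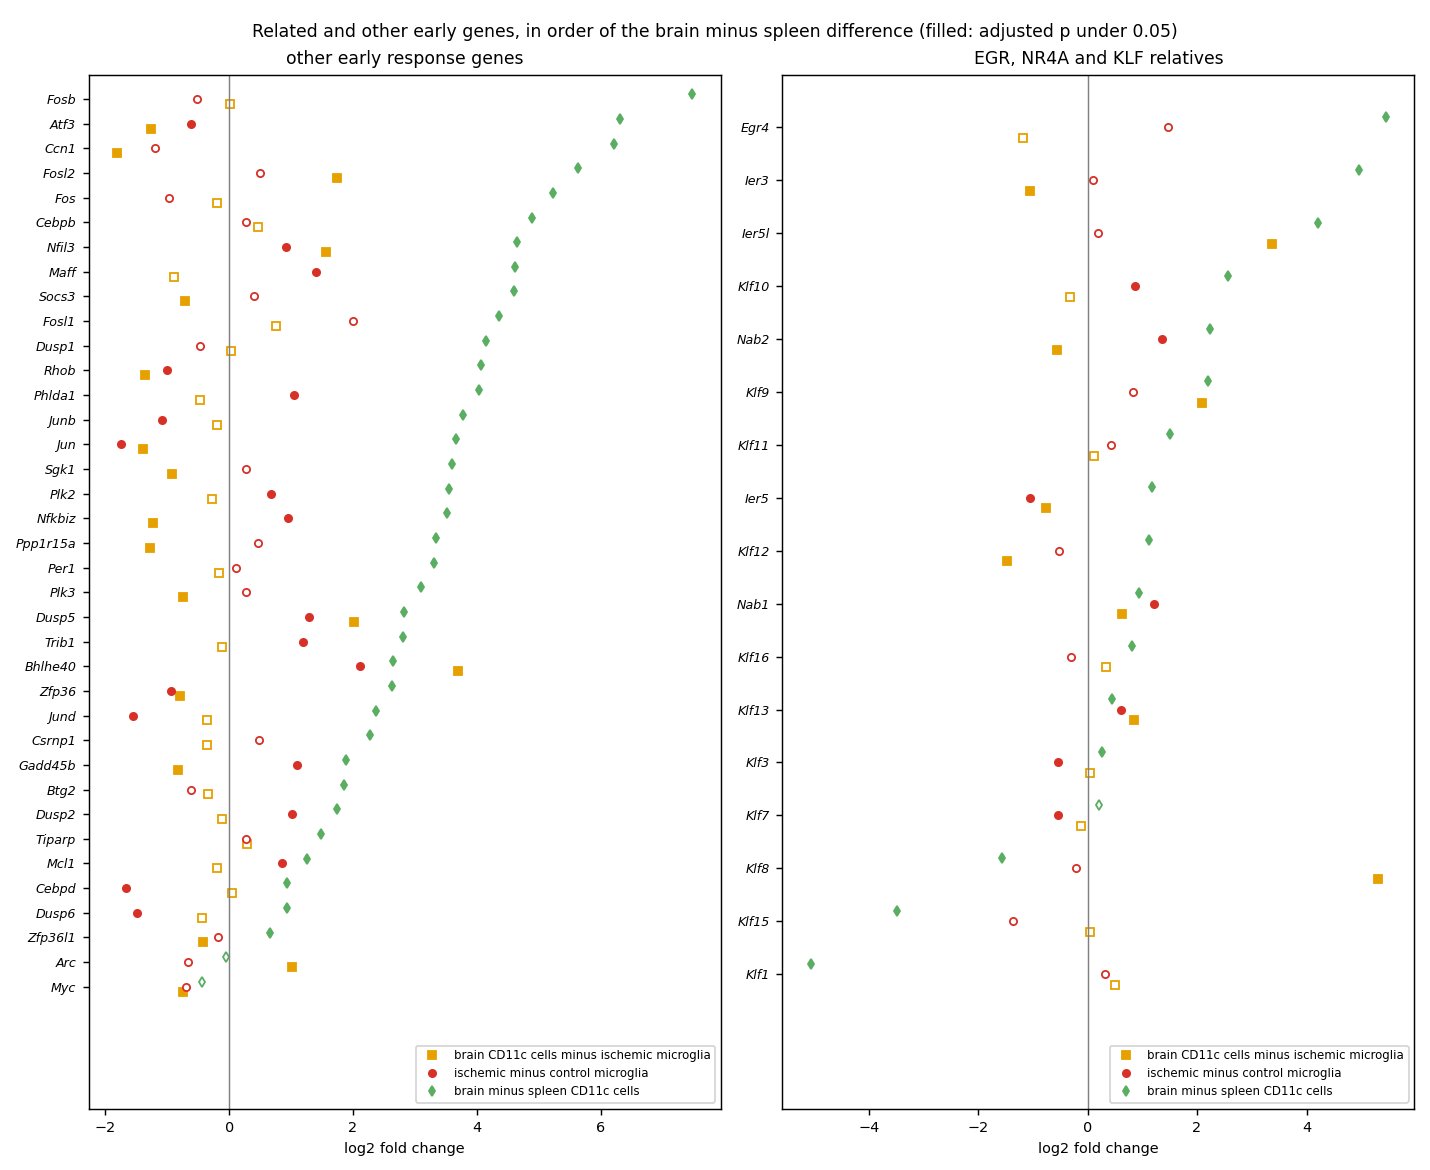
Log2 fold change of each tested gene of the other early response list (left) and of the EGR, NR4A and KLF relatives (right) in 3 comparisons, 1 row per gene, filled where the adjusted p is under 0.05. For brain against spleen CD11c cells 35 of 37 early genes are filled to the right of 0, with a median of 3.33, while both other comparisons lie on either side of 0.

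Genes whose pattern over the 16 libraries lay closest to each of the 10 were found by the root mean square difference between log2 CPM profiles centred on their mean, among 8255 genes with at least 20 CPM in their highest group. For Egr1 these were Rhob, at a difference of 0.34, and Jun, at 0.36. Smad7 (0.28) was nearest to Egr2, Clip1 (0.38) to Egr3, Ifrd1 (0.33) to Nr4a1, Grasp (0.37) to Nr4a3 and Nfkbid (0.38) to Ier2. Among the Krüppel-like genes, Stambpl1 (0.24) was nearest to Klf2, Jag2 (0.43) to Klf4 and Mafg (0.18) to Klf6. The gene nearest to Nr4a2, Flrt3, lay further off, at 0.94. Profiles were centred but not scaled, so the difference tends to be larger for genes with a wide range. Nr4a2 ran from 0.579 CPM in spleen to 302 CPM in brain CD11c cells, so the value does not show that no gene shares its pattern. Among the 10 genes themselves the closest pair was Egr2 and Ier2, at 0.54. These libraries share their groups, so likeness is a description of the 4 groups as much as of the genes.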

How the data were processed

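RNA was sequenced from cells sorted by reporter fluorescence, with stranded poly(A) libraries, per the labels' protocols, which describe enzymatic dissociation and Percoll for brain tissue. Reads were checked with FastQC 0.11.5 and aligned with STAR 2.5.3a to GRCm38, per the submitters' processing notes; the program that counted reads, its use of strand and the gene models were not given in the sources used here. The values deposited by the authors are whole-number read counts per Ensembl gene, and they were used unchanged. No annotated gene overlaps any of the 10 genes in GENCODE M21.

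Counts were fitted with edgeR 4.0.16 in R 4.3.3 (TMM scaling, filterByExpr, robust quasi-likelihood, 1 mean per group over all 16 libraries, two-sided tests, Benjamini-Hochberg adjustment over 16345 genes, threshold 0.05), and the script was tested on simulated data. Profiles for likeness used log2 CPM with a prior count of 2. Alternatives were DESeq2 1.42.0, limma-voom (limma 3.58.1), RLE size factors or library totals in edgeR, no low-count filter, only the groups compared, subsets of brain CD11c libraries, and leaving out each library. All 10 genes are named. From each wider list and comparison, up to 3 called genes with the largest change in the direction of most calls and 1 in the other were eligible, and for each of the 10 genes up to 2 alike genes, without predicted genes, mitochondrial genes and receptor segments. Listed upstream or feedback genes could be given regardless of call. The 10 genes and the lists were chosen with earlier results of these data known. Replicate numbers follow sample order and pair nothing. Nothing states that each library is a different animal; p-values then measure only the spread between these libraries, which may be technical. The labels give no batch, but they title brain CD11c replicates 3 and 4 by codes of another form than replicates 1 and 2.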

Additional observations from a re-analysis of the deposited data

Results flagged for a closer look

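Of the 40 combinations of gene and group examined, 1 had a library far from the others. Nr4a3 in spleen CD11c replicate 3 was 22.5 CPM, whereas the other 3 spleen libraries held 10.6 to 11.8 CPM, and its distance to the nearest of them was 0.898 of the whole range of the group, above Dixon's critical value for groups of 4. Chance gives such a value in about 1 in 20 groups. The other 9 genes in that library lay with the rest of their group by the same measure.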

How the results depend on the processing

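No paired analysis was possible because the groups compared share fewer than 2 sample numbers in the labels. The titles of brain CD11c replicate 1 and spleen CD11c replicate 4 do share a number. Whether these libraries came from the same animal is not given in the sources used here. Leaving out each library in turn kept the direction and the side of the threshold in 606 of 640 fold changes of the 10 genes, and the other settings in 302 of 320. The 8 genes called between brain and spleen CD11c cells were 8 in number under every setting, 6 to 9 were called between brain CD11c cells and ischemic microglia, and 8 to 9 for the difference of comparisons. Between ischemic and control microglia, 3 were called, 1 without the low-count filter (Nr4a3 then had an adjusted p of 0.0523 and Klf2 of 0.0698), and 1 to 4 on leaving out a library.

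Directions that turned belong to changes that were not called. With library totals, Klf6 was -0.0916 in ischemic against control microglia and Klf2 was -0.21 in brain against spleen CD11c cells; Klf2 was -0.035 there with limma-voom and -0.41 with brain CD11c replicates 1 and 2 alone. With replicates 3 and 4 alone, Ier2 was 0.0688 in brain CD11c cells against ischemic microglia and Egr3 was 0.0881 in the difference of comparisons. On leaving out a library, ischemic against control values ran from -0.049 to 0.19 for Klf6, from -0.0022 to 0.64 for Egr3, from -0.40 to 0.0437 for Nr4a2 and from -0.32 to 0.0695 for Ier2, brain against spleen values from -0.28 to 0.19 for Klf2, and the difference of comparisons from -0.38 to 0.27 for Egr3. The cause was not tested.

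Klf2 in brain CD11c cells against ischemic microglia was not called with library totals (adjusted p = 0.0671) or with only the groups compared (adjusted p = 0.0749). Klf4 was called there with limma-voom (0.67) and with library totals (0.69), which also called it in ischemic against control microglia (-0.72). DESeq2 called Klf2 in the difference of comparisons (adjusted p = 0.0383). Scaling by library totals moved the median of all genes by 0.097 in brain CD11c cells against ischemic microglia, by -0.15 in ischemic against control microglia, by -0.27 in brain against spleen CD11c cells and by -0.12 in the difference of comparisons. In the same order of comparisons, the share of higher among all calls went from 50.7% to 62.4%, from 49.5% to 33.5%, from 48.6% to 34.9% and from 54.5% to 46.1%. Depth limits none of the 10 genes in brain cells; in spleen CD11c cells Nr4a2 rests on 25 to 51 counts per library.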
